A study of Mus musculus with 6 samples.

Results

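The genes described here are 42 mouse genes of the amino acid stress programme. They comprise 18 cytosolic aminoacyl tRNA synthetases, 6 enzymes of serine, asparagine and one-carbon metabolism, 4 amino acid transporter subunits, 8 transcription factors and regulators of the integrated stress response, and 6 stress outputs and feedback genes. They were picked by name, out of 21900 protein-coding genes of the reference table, by a rule that used no peak, although earlier results of these data were known when the set was proposed. A peak was assigned to a member when the deposited annotation named that gene as the one with the nearest transcription start site. Of the 97783 peaks in the 6 deposited lists, 158 were assigned to a member, and 36 of the 42 genes were named at least once. The other 6 (Yars, Vars, Atf3, Atf5, Cebpb and Ppp1r15a) were the nearest gene of no peak in any list.

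The integrated stress response begins when kinases phosphorylate the initiation factor eIF2, which lowers general translation and raises that of a few messages, among them that of the transcription factor Atf4. Atf4, often paired with C/EBP proteins such as Cebpg, then activates genes for amino acid synthesis, amino acid import and tRNA charging, together with feedback genes that end the response. It binds composite elements known as C/EBP-ATF response elements. In growing neural progenitors the same enzymes supply serine, one-carbon units and charged tRNA for protein synthesis.

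The data were ChIP-seq peak lists from primary neural stem cells of newborn (P0) mouse cortex, grown with EGF and bFGF. Chd4, a chromatin remodelling ATPase of the NuRD complex, was the target in 4 libraries, and the nucleoporin Seh1 in the other two. The Chd4 libraries were Ctrl (wild type, growth medium), iKO (genotype mutant, 4-OH-TAM in growth medium), siSCR and siSeh1 (both wild type, growth medium). The names iKO and siSeh1 are read as deletion and silencing of Seh1, which the labels do not spell out. The Seh1 libraries were Ctrl, with Seh1 as the target (wild type, growth medium), and Seh1-flag, whose title says iKO and whose label says wild type with 4-OH-TAM. The driver of the inducible deletion, the silencing reagent and the number of animals behind each culture are not stated in the labels. Each group had 1 library, so there was no replicate and no test between conditions. The lists held 24961 peaks (Seh1-flag), 20833 (Seh1 Ctrl), 1154 (Chd4 Ctrl), 21294 (iKO), 2606 (siSCR) and 26935 (siSeh1), and the sequencing depth behind them is unknown. Peak lists hold no expression, so the labelled cell type could not be checked from them. Of 6 neural stem cell markers, Sox2 was listed at its promoter in siSeh1, and the others had no promoter peak in any list. The same siSeh1 list had promoter peaks at 2 of 4 oligodendrocyte markers (Olig2 and Sox10) and exon or untranslated region peaks in Sox10 and in the astrocyte marker S100b. The iKO list held exon or untranslated region peaks in 3 of 4 hepatocyte markers (Alb, Apoa1 and Serpina1a) and in 2 of 4 oligodendrocyte markers (Sox10 and Mbp), and no promoter peak at either group. Their part in the results was not tested.

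Of the promoters considered below, 3 that had a Chd4 peak are shown first, because the CCAAT box, a pentamer bound by the factor NF-Y, recurs in them. Each sequence runs 5′ to 3′ on the gene's own strand and ends at the base before the start site (RefSeq, GRCm38.p6, a patch release of the assembly behind mm10). Capitals mark CCAAT or its complement. Atf4 is at chr15:80255034-80255183 (plus strand), Ddit4 at chr10:59951771-59952020 (minus strand) and Mthfd2 at chr6:83317605-83317704 (minus strand).
Atf4: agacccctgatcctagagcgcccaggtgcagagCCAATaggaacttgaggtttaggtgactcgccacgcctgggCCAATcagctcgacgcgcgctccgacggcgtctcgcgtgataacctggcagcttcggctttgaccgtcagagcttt
Ddit4: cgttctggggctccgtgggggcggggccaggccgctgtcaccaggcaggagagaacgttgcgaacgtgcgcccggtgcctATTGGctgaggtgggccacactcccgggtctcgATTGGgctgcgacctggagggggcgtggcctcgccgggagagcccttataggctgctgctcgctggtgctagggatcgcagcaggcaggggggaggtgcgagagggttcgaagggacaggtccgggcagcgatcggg
Mthfd2: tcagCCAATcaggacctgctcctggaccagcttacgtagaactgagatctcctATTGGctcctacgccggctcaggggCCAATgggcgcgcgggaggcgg

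The following 5 promoters hold the C/EBP-ATF element, searched as TGATGNAA on both strands and marked in capitals. Aars and Tars had a Chd4 promoter peak. Chac1, Slc7a11 and Atf3 had none and are shown for contrast. CCAAT, present in the Aars, Tars and Chac1 stretches, is left unmarked here. Aars is at chr8:111033692-111033841 (plus strand), Tars at chr15:11399659-11399758 (minus strand), Chac1 at chr2:119350992-119351241 (plus strand), Slc7a11 at chr3:50443614-50443713 (minus strand) and Atf3 at chr1:191183334-191183483 (minus strand).
Aars: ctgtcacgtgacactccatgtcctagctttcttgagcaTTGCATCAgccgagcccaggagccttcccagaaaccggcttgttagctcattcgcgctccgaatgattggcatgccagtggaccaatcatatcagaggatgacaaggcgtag
Tars: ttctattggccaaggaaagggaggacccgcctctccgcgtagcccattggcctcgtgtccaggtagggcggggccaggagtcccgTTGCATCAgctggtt
Chac1: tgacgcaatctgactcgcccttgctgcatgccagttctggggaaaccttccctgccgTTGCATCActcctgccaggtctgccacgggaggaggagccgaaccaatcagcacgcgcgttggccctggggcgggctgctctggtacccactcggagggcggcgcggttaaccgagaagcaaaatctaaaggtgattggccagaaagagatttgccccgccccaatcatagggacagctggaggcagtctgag
Slc7a11: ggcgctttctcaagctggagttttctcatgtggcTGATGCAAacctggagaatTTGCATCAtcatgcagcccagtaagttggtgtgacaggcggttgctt
Atf3: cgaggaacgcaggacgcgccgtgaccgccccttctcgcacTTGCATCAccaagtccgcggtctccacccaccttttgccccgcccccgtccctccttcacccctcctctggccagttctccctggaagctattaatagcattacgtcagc

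Chd4 was listed at the promoters of 13 of the 42 genes in siSeh1 and of 3 in iKO, and of none in siSCR or Ctrl. A promoter peak is a peak within 1 kb of the nearest start site. In siSeh1 the 13 were 5 tRNA synthetases (Aars, Iars, Dars, Qars and Tars), 4 metabolic enzymes (Mthfd2, Shmt2, Phgdh and Psph), 2 transcription factors (Atf4 and Cebpg) and 2 outputs (Ddit4 and Stc2). The Psph peak, counted among the 13, also lies near the start site of Cct6a. Atf4, Cebpg and Ddit4 made up the iKO count. By the deposited nearest gene, neither Seh1 list had a promoter peak at any of the 42 genes. Counting any start site of a member within 1 kb, Seh1-flag had 2, at -332 bp from Ppp1r15a and -868 bp from Trib3, and these peaks are assigned to Plekha4 and Gm14164. The matrix of peaks by gene and list shows these counts.

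**Figure D1:**
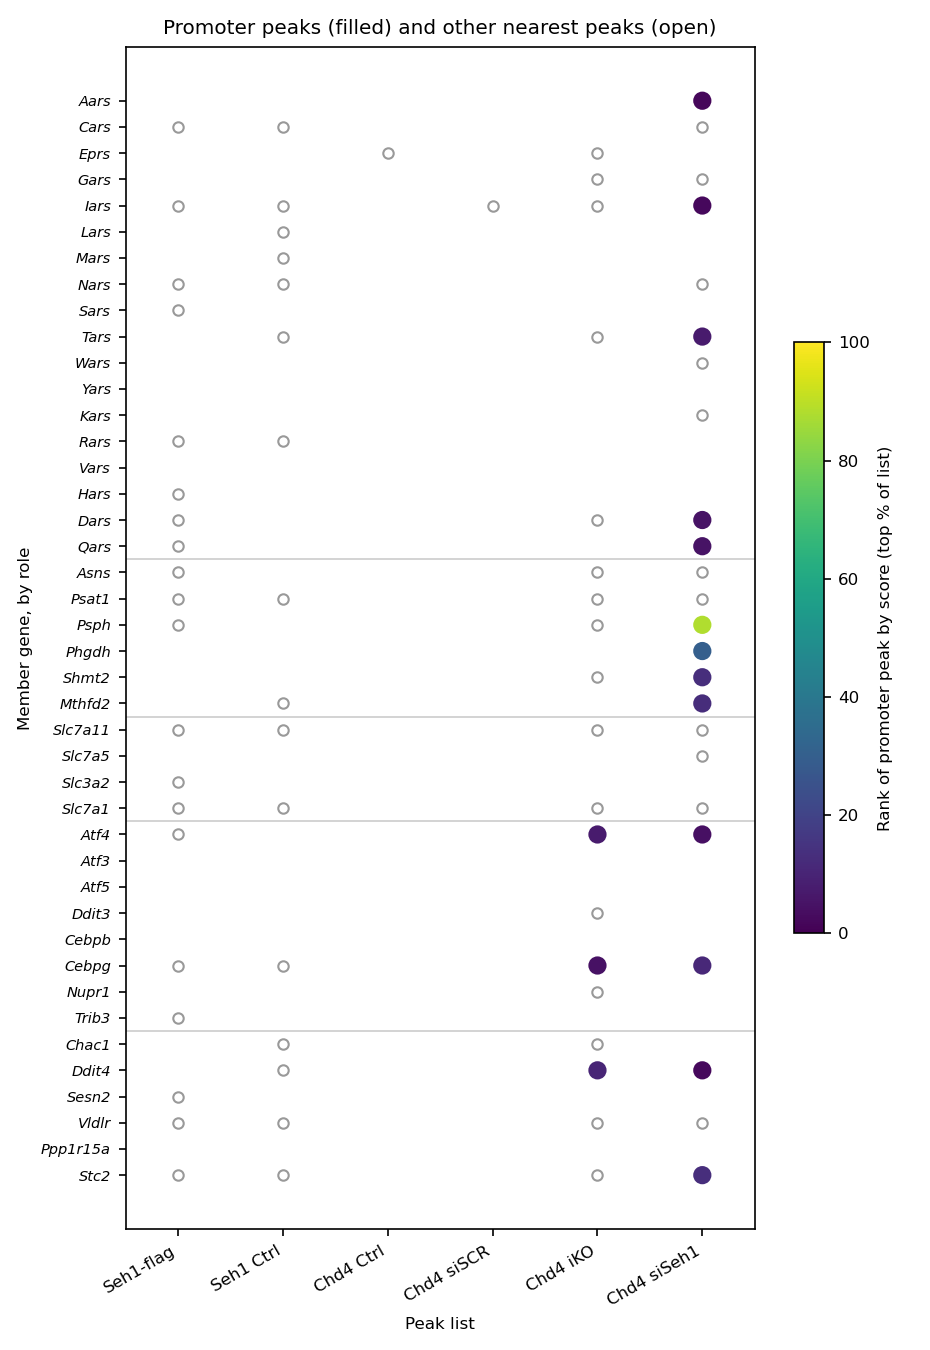
Peaks of the 42 genes (rows, grouped by role with grey lines between roles, from the top: synthetases, metabolic enzymes, transporters, transcription factors and regulators, outputs and feedback) in the 6 lists (columns). Filled circles are promoter peaks, coloured by the rank of the peak's score within its list, and open circles mark a gene with other nearest peaks alone. Filled circles stand in the siSeh1 column for 13 genes and in the iKO column for 3.

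Read against all protein-coding genes, the siSeh1 share of these genes was the higher one and the iKO share was near the background. In siSeh1, 31.0% of the members had a promoter peak (95% exact interval 17.6 to 47.1%), against 11.8% of all 21900 protein-coding genes, at which share 4.97 of 42 genes would have had one. In iKO it was 7.14% (1.5 to 19.5%) against 5.18%. Among the 15835 genes named in any list, the shares with a promoter peak were higher, 16.4% in siSeh1 and 7.16% in iKO. For the remaining lists the share of all protein-coding genes was 1.63% in siSCR, 0.0183% in Chd4 Ctrl, 1.33% in Seh1-flag and 1.02% in Seh1 Ctrl. At those shares fewer than 1 of the 42 genes would have had a peak, so the absence of the members from these 4 lists is no result about them. Intervals cover counting error alone. The share of members with a peak was not tested against that of other genes.

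A gene is called gained when Chd4 was listed at its promoter after the perturbation but not in the matching control. All 13 siSeh1 genes were gained against siSCR, where 10.5% of protein-coding genes were gained. All 3 iKO genes were gained against Ctrl, where the share was 5.18%. Ctrl had promoter peaks at only 4 protein-coding genes, and all 1134 genes with an iKO promoter peak counted as gained. Being gained against Ctrl therefore adds nothing to having an iKO peak. Atf4, Cebpg and Ddit4 were gained in both comparisons (7.14% of the members, 1.5 to 19.5%). The share of all protein-coding genes was 2.17%, which the interval holds. The control lists were far shorter than the perturbed lists. With the siSeh1 list cut to the 2606 peaks of highest score, the length of the siSCR list, 7 members still had a promoter peak (Aars, Iars, Ddit4, Atf4, Dars, Qars and Tars), against 5.98% of protein-coding genes and none of the members in siSCR. With the iKO list cut to 1154 peaks, the length of the Ctrl list, Cebpg alone remained, against 2.02% of protein-coding genes. It was among 313 peaks of equal score across that limit, and the order of the file decided its place.

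**Figure D2:**
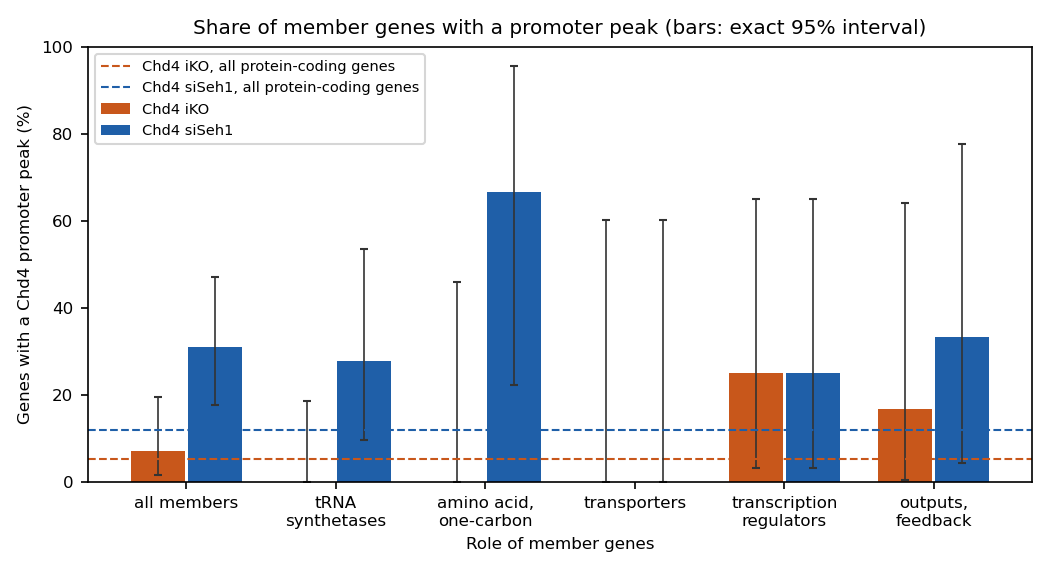
Percentage of genes with a Chd4 promoter peak (vertical axis) for all 42 genes and for each role, in iKO (orange) and siSeh1 (blue). Error bars are exact 95% intervals and dashed lines are the shares of all protein-coding genes, 5.18% and 11.8%. The siSeh1 bar for all members stands at 31.0% and that for the metabolic enzymes at 66.7%. Both count the Psph peak, which cannot be assigned to that gene alone.

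The tRNA synthetases, which load each amino acid onto its tRNA, had Chd4 promoter peaks at 5 of 18 genes in siSeh1 (27.8%, 9.69 to 53.5%). The share of all protein-coding genes there was 11.8%, which the interval holds. The synthetases had 0 in the other 5 lists. There the share of all protein-coding genes was at most 5.18%, so these absences are no result about them. Aars, the alanyl synthetase, had the highest score of all member promoter peaks, 10.2 on the authors' scale, at chr8:111033848, 6 bp downstream of the start site. That peak ranked 508 of 26935, in the top 1.89% of the list. Iars, the isoleucyl synthetase, had a score of 9.11 (rank 624) at chr13:49681982, 148 bp upstream. Dars and Qars, for aspartate and glutamine, each had a score of 6.28 (rank 1289), with the peaks 14 bp downstream and 17 bp upstream of the start. Tars, for threonine, had a score of 5.41 (rank 1905), 9 bp downstream. By these ranks the 5 synthetase peaks all lay in the top 7.07% of the list. That limit is the best place of a tie, since 482 peaks had the Tars score.

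The other 13 synthetases had no promoter peak in any list. In Wars, the tryptophanyl synthetase, siSeh1 had a peak in exon 5 of 10 (score 2.68) and another in intron 1 (2.87). Kars (lysine) had a siSeh1 peak in intron 1, 2541 bp from the start, and Gars (glycine) one in intron 1 as well, 4638 bp from it. The single Chd4 Ctrl peak assigned to any of the 42 genes was at -4278 bp from Eprs, the glutamyl-prolyl synthetase, at the end of an adjoining transcript (score 3.49). Both siSCR peaks assigned to a member lay downstream of Iars, 64759 and 95218 bp from its start site, in repeat elements (an IAPEY3 retroelement and a LINE).

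Of the metabolic enzymes 4 of 6 had a promoter peak in the full siSeh1 list (66.7%, 22.3 to 95.7%, beside 11.8% of protein-coding genes). The 4 include Psph, whose peak also lies near the start site of another gene, and no share was computed without it. In the siSeh1 list cut to the length of siSCR none of the 6 remained (0 of 6, 0 to 45.9%), beside 5.98% of protein-coding genes. At that share a count of 0 is no result about these enzymes. The synthetases stayed at 5 of 18 (27.8%, 9.69 to 53.5%), and the intervals of these groups overlap. Mthfd2, the mitochondrial one-carbon enzyme, had a score of 4.73 (rank 3365) 77 bp upstream of its start. Shmt2, which converts serine to glycine in mitochondria, had a score of 4.58 (rank 3562) in the 5′ untranslated region, 106 bp downstream. Phgdh, the first enzyme of serine synthesis, had a score of 3.79 (rank 8027) in its first intron, 833 bp downstream, the farthest of all member promoter peaks. Psph, the last enzyme of serine synthesis, had a score of 2.64 (rank 23753), in the top 88.2% of the list and so near its lower limit. Its peak, 11 bp downstream of its start, also lay 114 bp from the start site of Cct6a, a chaperonin subunit transcribed the opposite way, so it cannot be assigned to either gene.

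Psat1 and Asns, the other two enzymes of the group, had no promoter peak. The nearest siSeh1 peak assigned to Asns, the asparagine synthetase, was at -5234 bp (negative distances are upstream). For Psat1 the siSeh1 peaks lay 222036 to 594320 bp away in intergenic sequence. In iKO, where none of the 6 enzymes had a promoter peak, Shmt2 had a peak in its intron 2, 1841 bp from the start (score 2.71), and Psph one in intron 5, 17257 bp from it (3.71).

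The transporters import amino acids (Slc7a5 with Slc3a2 for large neutral ones, Slc7a11 for cystine, Slc7a1 for cationic ones). None of the 4 genes had a promoter peak in any list (0 to 60.2% in siSeh1, beside 11.8% of protein-coding genes). Slc7a1 had a Chd4 peak in intron 1 of 12 in both iKO (score 2.71) and siSeh1 (3.79), at chr5:148383008 and chr5:148382759, which are 249 bp apart. Slc7a11 had a siSeh1 peak in intron 9 of 11, 64148 bp from the start (3.35), and a Seh1-flag peak in intron 11, 70807 bp from it. The siSeh1 peak nearest to Slc7a5 was 38572 bp away, and Slc3a2 had a Seh1-flag peak in its last exon, in the 3′ untranslated region.

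Among the transcription factors and regulators, Atf4 and Cebpg had a Chd4 promoter peak in both perturbed lists (2 of 8 genes, 25%, 3.19 to 65.1%). The interval holds the shares of all protein-coding genes, 5.18% in iKO and 11.8% in siSeh1. Atf4, the main effector of the response, had a score of 5.24 in iKO (rank 1580 of 21294) at chr15:80255137 and of 6.94 in siSeh1 (rank 1099) at chr15:80255157. These positions were 20 bp apart, 47 and 27 bp upstream of the start, in the stretch printed above downstream of both of its marked CCAAT boxes. The nearest siSCR peak to the Atf4 start was 208 kb away and the nearest Ctrl peak 1350 kb away. Cebpg, a C/EBP partner of Atf4, had a score of 5.59 in iKO (rank 929), 70 bp downstream of the start at chr7:35056496, and of 4.85 in siSeh1 (rank 2956), 89 bp upstream at chr7:35056655. The 2 Cebpg peaks were 159 bp apart on opposite sides of the start, and its nearest siSCR peak was 283 kb away.

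Ddit3 (CHOP), Trib3, Nupr1, Atf3, Atf5 and Cebpb had no Chd4 promoter peak. Ddit3 and Nupr1 each had an iKO peak, 10479 bp and 12526 bp from the start, and that of Ddit3 lay in an intron of the adjoining Mars. Trib3, an inhibitor of Atf4 activity, had a Seh1-flag peak in intron 2 (score 4.65).

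Of the stress outputs, Ddit4 (REDD1, an inhibitor of mTORC1) had a Chd4 promoter peak in both perturbed lists. Its score was 4.74 in iKO (rank 2189) at chr10:59952017 and 9.11 in siSeh1 (rank 624) at chr10:59951974. The peaks were 43 bp apart, 247 and 204 bp upstream of the start, and the nearest siSCR peak was 145 kb away. Both Ddit4 positions lay upstream of the 2 CCAAT boxes marked in its sequence. Stc2 (stanniocalcin 2, a secreted glycoprotein) had a score of 4.58 in siSeh1 (rank 3562), 206 bp upstream. Chac1, a glutathione-degrading enzyme, Sesn2 and Vldlr had no promoter peak, and Ppp1r15a (GADD34, which restores eIF2 activity) was named in no list, its nearby Seh1-flag peak being assigned to Plekha4. Sesn2, a leucine sensor, had the highest-scoring Seh1-flag peak inside a member gene, 10.8 (rank 516 of 24961), in intron 2 of 9.

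**Figure D3:**
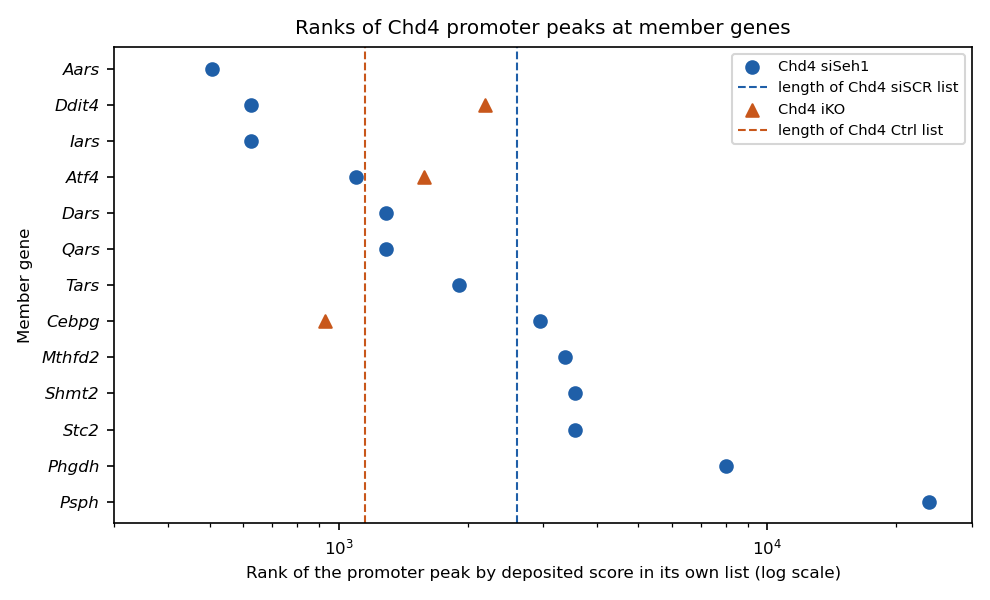
Rank of each Chd4 promoter peak by the deposited score in its own list (horizontal, log scale, rank 1 being the highest score) for the 13 genes, in siSeh1 (blue circles) and iKO (orange triangles). Dashed lines mark the lengths of the siSCR list (2606 peaks, blue) and the Ctrl list (1154 peaks, orange). In siSeh1, 7 genes stand left of the blue line and Psph stands far to the right at rank 23753.

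Within the siSeh1 list the members' scores were like those of other promoter genes. Their median score was 5.41 (lowest 2.64, highest 10.2) beside 5.14 for all 2750 promoter genes, and 7 of 13 were above that median. Of the members 7 were among the 10% of peaks with the highest scores, as were 50.1% of all siSeh1 promoter genes. In iKO the 3 members had scores of 4.74 to 5.59 beside a median of 4.74 for 1245 promoter genes. Scores were compared within a list alone, since their scale is not stated.

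The peaks lay close to the start sites. In siSeh1 12 of 13 member promoter peaks lay within 250 bp of the start and 8 within 100 bp, beside 75.5% and 44.2% of all siSeh1 promoter peaks. The median distance was 77 bp for the members and 115 bp for all promoter peaks. Upstream of the start lay 7 of the 13. The innermost and outermost cases around the 1 kb limit were the Phgdh peak at 833 bp and a second siSeh1 peak of Dars at -1122 bp. The next outside were Seh1-flag peaks of Rars at -1581 bp, Iars at -1755 bp and Psph at 1808 bp, and the iKO peak of Shmt2 at 1841 bp.

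**Figure D4:**
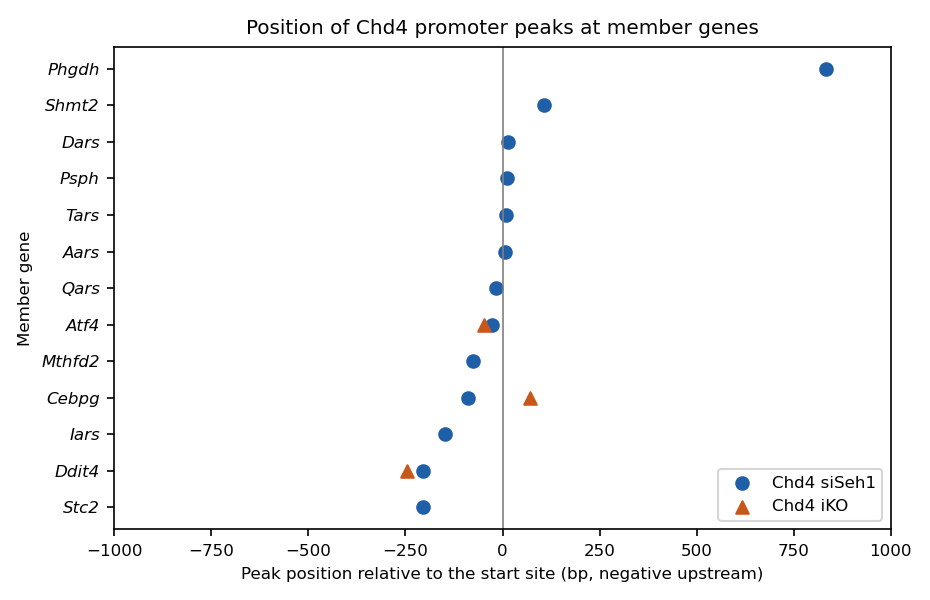
Position of each Chd4 promoter peak relative to the start site (horizontal, in bp, negative upstream) for the 13 genes in siSeh1 (blue circles) and 3 genes in iKO (orange triangles). All siSeh1 peaks except that of Phgdh, at 833 bp, stand within 250 bp of the start.

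At the start sites of these 13 genes the other lists had their nearest peaks farther away. The genes were picked by their siSeh1 peak, so the siSeh1 distances of 6 to 833 bp are fixed by that choice. In siSCR the nearest peaks were 9.01 to 1930 kb away (median 292 kb), with the closest beside Qars. In Chd4 Ctrl they were 435 to 10400 kb away (median 1820 kb). In iKO they ranged from 47 bp at Atf4 to 326 kb at Phgdh (median 10.1 kb), in Seh1-flag from 1.75 to 392 kb (median 10 kb) and in Seh1 Ctrl from 4.58 to 220 kb (median 58.2 kb). Longer lists place peaks nearer to any gene, and these distances were not scaled for list length.

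**Figure D5:**
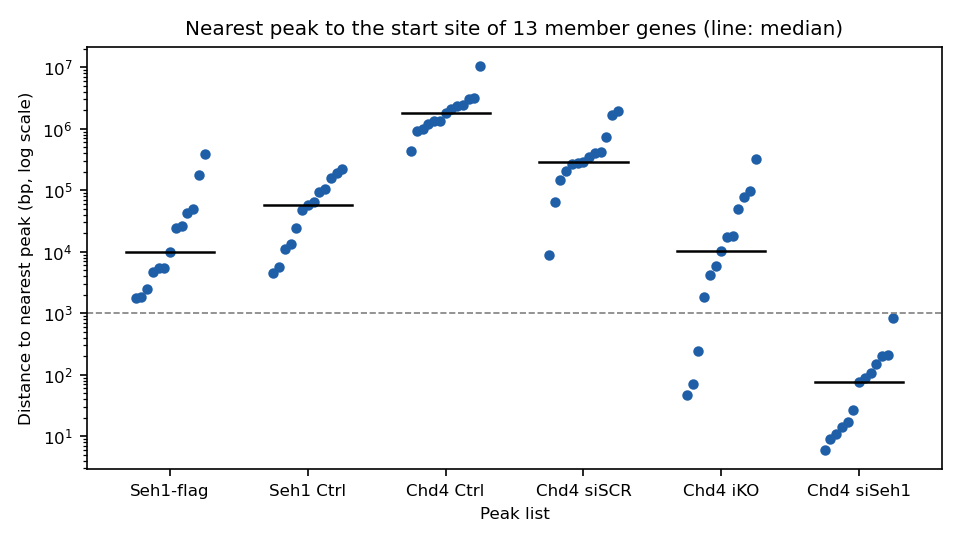
Distance from the start site of each of the 13 genes with a siSeh1 promoter peak to the nearest peak in each list (vertical, bp, log scale). Each point is 1 gene, black lines are medians and the dashed line is the 1 kb promoter window. The siSeh1 points lie below the line because the genes were picked by them, 3 iKO points lie below it, and all points of the other 4 lists lie above it.

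Overlap of peaks between lists was low for the members and for most pairs of whole lists. The highest shares were 15.8% of siSCR peaks overlapping siSeh1 and 10.5% of Chd4 Ctrl peaks overlapping Seh1-flag. The members had only 2 siSCR peaks and 1 Ctrl peak, with 0 overlaps in those pairs, which is no result about them. Windows of 240 bp around the peak positions were compared. Of the 33 iKO peaks assigned to members, 3 overlapped a siSeh1 peak, beside 4.79% of all iKO peaks, and these were the promoter peaks of Atf4, Cebpg and Ddit4. Of the 2 siSCR peaks, beside 6.83% of that list, the one 64759 bp from Iars overlapped a Seh1-flag peak 98 bp away. An iKO peak 606 kb from Psat1 overlapped a Seh1-flag peak 16 bp away, beside 0.85% of all iKO peaks. None of the 30 Seh1 Ctrl or 54 siSeh1 member peaks overlapped a Seh1-flag peak, beside 0.845% and 0.575% of those lists. At shares this low a count of 0 is no result about the members.

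By annotation class, 11 of the 54 siSeh1 member peaks lay in the class promoter-TSS, beside 8.8% of all siSeh1 peaks, 11 in introns (32.4% of the list) and 29 between genes (54.3%). Of the 33 iKO member peaks 3 lay in the promoter class, beside 4.85% of all iKO peaks, 6 in introns (30.2%) and 24 between genes (60.7%). In Seh1-flag 13 of 38 member peaks were intronic (36.2% of the list) and 23 intergenic (60.3%), and in Seh1 Ctrl 10 of 30 (34.8%) and 19 (61.3%), so both Seh1 lists placed the members' peaks near the shares of the whole list. The Seh1-flag introns held 3 peaks in Iars and 1 each in Sesn2, Trib3, Psph, Cars and Hars, among others.

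The rest of the pathway was read from 62 further genes. Chd4 was listed at the promoters of 11 in siSeh1 (17.7%, 9.2 to 29.5%), of 8 in iKO (12.9%, 5.74 to 23.9%), of 2 in siSCR (3.23%, 0.393 to 11.2%) and of none in Ctrl. The shares of all protein-coding genes were 11.8%, 5.18%, 1.63% and 0.0183%, and the intervals for siSeh1 and siSCR hold them. Eif2ak3, which encodes the eIF2 kinase PERK, had one in siSCR (score 4.33, rank 689 of 2606), iKO (15.9, rank 53) and siSeh1 (16.9, rank 140). Dnajc3 (P58IPK, an inhibitor of eIF2 kinases) had one in the same 3 lists, with scores of 8.39 (rank 83), 7.51 (rank 363) and 13.3 (rank 274). Those 2 genes were therefore listed in the control siSCR as well. The other eIF2 kinase genes, Eif2ak1, Eif2ak2 and Eif2ak4, had no promoter peak in any list.

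Among 15 further amino acid and one-carbon enzymes, 5 had a Chd4 promoter peak in siSeh1 (33.3%, 11.8 to 61.6%) and 4 in iKO (26.7%, 7.79 to 55.1%). The shares of all protein-coding genes were 11.8% and 5.18%. In siSeh1 that share equals the lower limit of the interval at the digits given, and neither difference was tested. Mthfd1, the cytosolic one-carbon enzyme, had scores of 3.93 in iKO (rank 5603) and 10.0 in siSeh1 (rank 554). Shmt1, the cytosolic counterpart of Shmt2, had 6.49 in iKO (rank 549) and 2.87 in siSeh1 (rank 19846). None of the 15 had a promoter peak in siSCR or Ctrl (0 to 21.8% in each). The shares of all protein-coding genes there were 1.63% and 0.0183%, so these absences are no result about the enzymes. Of 17 mitochondrial tRNA synthetases none had a Chd4 promoter peak in siSeh1 and 1 (Mars2) had one in iKO, and both intervals (0 to 19.5% and 0.149 to 28.7%) hold the share of all protein-coding genes.

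The promoters were then compared by sequence, over the stretch from 250 bases before to 50 after the start. Of the 42 members 34 had an entry in the reference table, among them all 13 with a siSeh1 promoter peak. A gene with several listed start sites was counted when any of its windows held the motif. The C/EBP-ATF element TGATGNAA was found in 12 of the 34 (35.3%), beside 4.13% of 17492 protein-coding genes. It was in 3 of the 13 members with a siSeh1 promoter peak (Aars, Iars and Tars, 23.1%) and in 9 of the 21 without one (42.9%; Asns, Atf3, Chac1, Gars, Nupr1, Slc7a11, Trib3, Vldlr and Yars). Over all protein-coding genes it was likewise rarer with a siSeh1 promoter peak (2.37%) than without one (4.38%). These shares were not tested. Atf4, Cebpg and Ddit4 had no match in this window. Elements were 7 bp from the siSeh1 summit in Aars (the second of its 2 matches, 9 bases after the start), 20 bp from it in Tars and 159 bp in Iars. The element TGACGTCA was found in 1 member, Ppp1r15a, and in 2.54% of protein-coding genes. A match describes letters in the window and shows no binding.

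Most members had promoters rich in CpG. A GC share of at least 0.5 with an observed to expected CpG ratio of at least 0.6 was met by 27 of the 34 members (79.4%) and by 44.8% of protein-coding genes. Among the 7836 protein-coding genes of this kind 20.4% had a siSeh1 promoter peak, beside 9 of the 27 members (33.3%). In iKO the values were 8.5% and 3 of 27 (11.1%). Set against promoters of like composition, the siSeh1 share of the members stood closer to the background than it did against all genes. At the 20.4% share, 5.51 of the 27 members would have had a peak. No interval was computed for the 33.3%, and the difference was not tested. Of the members with a siSeh1 peak 69.2% were CpG-rich, beside 85.7% of those without. Their median GC was 56% and 60.7%, and their median CpG ratios were 0.761 and 0.736.

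The pentamer CCAAT, searched on both strands after the sequences had been read, was in 11 of the 13 members with a siSeh1 promoter peak (84.6%) and in 12 of 21 without one (57.1%). Dars and Shmt2 were the 2 that lacked it. Aars held 5 copies in this stretch, Mthfd2 held 3, and Atf4, Cebpg and Ddit4 held 2 each. Iars, Phgdh, Psph, Qars and Tars also held 2 each, and Stc2 held 1. Of the 12 without a peak, Chac1 held 3, Psat1 held 3 in a single window and Sesn2 held 2. The others of the 12 held 1. Over all protein-coding genes the share was 67% with a siSeh1 promoter peak and 38.9% without. It was 74.1% for genes with an iKO promoter peak and 86.1% for those of siSCR, beside 50.2% for Seh1-flag and 44% for Seh1 Ctrl. Within CpG-rich promoters it was 68.2% with a siSeh1 peak and 33.1% without. These shares describe letters and were not tested.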

How the data were processed

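Each deposited file is a list of peaks with HOMER annotation on mm10, per the file headers. The submitters' processing notes name Bowtie2 and HOMER, with no version, and human builds besides. The peak caller, its threshold and the input remain not given in the sources used here. Each peak carries the authors' peak score, whose scale is not stated, and a distance to the nearest start site. The lists hold single positions except Seh1 Ctrl, which holds intervals and whose deposited scores are all 0, so it has no ranks. Tied scores share the lowest rank number, so a rank can stand for a large tie (2615 siSeh1 peaks at the Phgdh score).

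Members were matched by gene name, or by the name with 1 added, and all 42 were found in the RefSeq table of GRCm38.p6. The members, the gene lists and the naming rule (every member with a promoter peak, and pathway genes with one in at least 2 Chd4 lists) were chosen with earlier results of these data known. Genes named outside it were chosen after their values were seen. Some pathway genes that meet the rule are not reported here. For overlaps, single positions were widened to 240 bp and at least 1 bp had to be shared. Shares carry exact Clopper-Pearson intervals. Python 3.11.15, numpy 2.4.6, pandas 2.3.3, scipy 1.17.1 and matplotlib 3.10.9 were used, and the overlap code was tested on simulated data. Alternatives changed the window, annotation rule, list length, score limit, control, name matching, motif, overlap rule and background.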

Additional observations from a re-analysis of the deposited data

How the results depend on the processing

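Of 59 recomputed counts of members, 50 stayed within 1.5 times the reported count. The 50 include counts of 0 that stayed 0 in lists without a member promoter peak. The counts of gains largely repeat the promoter counts of the same list. So the 50 are not independent and do not measure how firm the results are. Cutting the perturbed lists to the length of their controls lowered the siSeh1 count and the siSeh1 gains from 13 to 7, the iKO count and gains from 3 to 1 and the genes gained in both comparisons from 3 to 0. One minimum score for siSeh1 and siSCR, chosen after seeing the data and resting on a common scale that is not known, also left 7 gains. A window of 2500 bp gave 4 members in Seh1-flag in place of 0. Counting any reference start site of a member within 1 kb, also chosen after seeing the data, gave 2 there: peaks at -868 bp from Trib3 and -332 bp from Ppp1r15a, which the annotation assigns to other genes. With centres within 500 bp, 5 iKO member peaks met a siSeh1 peak in place of 3. The share of all iKO peaks under that rule was not computed, so the rise is no result about the members. Against siSCR the 3 iKO gains remained 3. No paired analysis was possible because each group has 1 library. Depth is unknown, so an absent peak shows no absence of binding.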
